A study of Mus musculus with 6 samples.

Results

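The genes of the epidermal growth factor (EGF) receptor family and their ligands were followed in 6 spontaneous mouse tumors. The set comprised 4 receptors (Egfr, Erbb2, Erbb3 and Erbb4) and 6 ligands (Areg, Ereg, Hbegf, Tgfa, Btc and Nrg1). They were chosen by name, and all 10 had an entry among the 23358 entries of the gene count table.

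The tumors came from mice carrying NT3, a transgene for NF-κB inducing kinase (NIK) that lacks the TRAF3 binding domain and lies behind a floxed stop cassette in the ROSA26 locus. Cre recombinase switches the allele on by removing the stop cassette. In Osx-Cre;NT3 mice, Cre was driven by Osterix in a Tet-OFF transgene, held off by doxycycline chow until weaning. In FSP1-Cre;NT3 mice, Cre was driven by FSP1 (S100a4), a driver used for fibroblasts that has also been described in myeloid cells. All 6 mice were female and carried both NT3 and a Cre, and samples without the transgene were not analysed here. The 3 Osx-Cre;NT3 tumors, numbered 13, 18 and 25, were from the trunk and had latencies (in days) of 150, 168 and 115. Among FSP1-Cre;NT3 tumors, also 3, number 29 was from the trunk with a latency of 72 days, and numbers 27 and 36 were perineal with latencies of 101 and 52 days. The NT3 line was on a C57Bl/6J background, the Osx-Cre line on mixed C57Bl/6J and CD1, and the FSP1-Cre line on FVB/n. Line, strain background, doxycycline and latency, longer in every Osx-Cre;NT3 tumor, therefore cannot be told apart, and the perineal site was found in FSP1-Cre;NT3 tumors only.

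EGF family receptors are tyrosine kinases of the cell surface that pair with each other when a ligand binds. Erbb2 has no known ligand of its own, and Erbb3 has little kinase activity and signals through its partner. The ligands are made as precursors anchored in the membrane and are released by ADAM proteases. Amphiregulin (Areg) and transforming growth factor α (Tgfa) bind EGFR, epiregulin (Ereg), heparin-binding EGF (Hbegf) and betacellulin (Btc) bind EGFR and ERBB4, and neuregulin 1 (Nrg1) binds ERBB3 and ERBB4. In skin the ligands are known for their part in keratinocyte growth and wound repair.

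Areg, Ereg and Btc, which varied most among the tumors of all members but the almost undetected Erbb4, are neighbors on chromosome 5. On mm10 (GRCm38), the deposited entries placed Ereg at chr5:91074617-91093649 and Areg at chr5:91139615-91148432, both on the plus strand, and Btc at chr5:91357261-91402994 on the minus strand. From the start of Ereg to the end of Btc the stretch measured 328.4 kb. The RefSeq promoter table for GRCm38.p6 held 6 of the 10 members (Erbb4, Areg, Btc, Tgfa, Egfr and Erbb2). The promoters of Areg and Btc are shown because both genes were highest in the same tumor, each from 250 bases before to 50 bases after the RefSeq start, 5′ to 3′. The Areg window is chr5:91139349-91139648 on the plus strand and the Btc window chr5:91402945-91403244 on the minus strand, and capitals mark the motifs found.
Areg promoter: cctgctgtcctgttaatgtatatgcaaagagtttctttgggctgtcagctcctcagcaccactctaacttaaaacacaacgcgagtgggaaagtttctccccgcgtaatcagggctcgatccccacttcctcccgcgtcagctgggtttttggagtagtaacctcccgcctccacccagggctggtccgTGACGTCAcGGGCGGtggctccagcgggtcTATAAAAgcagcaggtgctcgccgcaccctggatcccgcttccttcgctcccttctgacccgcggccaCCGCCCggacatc
Btc promoter: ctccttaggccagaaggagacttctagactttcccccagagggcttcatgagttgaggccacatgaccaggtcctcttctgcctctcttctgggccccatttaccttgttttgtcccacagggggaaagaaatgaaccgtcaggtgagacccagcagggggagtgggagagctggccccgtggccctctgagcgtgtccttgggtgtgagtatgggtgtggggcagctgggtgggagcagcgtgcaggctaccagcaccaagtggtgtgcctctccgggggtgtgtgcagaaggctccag
Both strands were searched for a cAMP response element (CRE, TGACGTCA), an AP-1 motif, a TATA box, an E-box, a GC box and a κB motif. The letters searched were TGANTCA for the AP-1 motif and TATAAAA for the TATA box. The E-box was read as CACGTG. For the GC box, GGGCGG was used, and no motif overlapped another in these windows. The Areg window held a CRE whose first base was 61 bases before the start, a GC box at 52 bases before it and a TATA box at 31 bases before it, with a GC box on the other strand at 37 bases after it. A CRE was found in 1.79% of the 32851 promoters of the table and a TATA box in 5.48%, and Areg was the only member with either. The GC box, present in 35.7% of all promoters, was also found in Tgfa and Egfr, and the κB motif, present in 8.46%, in Tgfa. No member promoter held the AP-1 motif (7.81% of all) or the E-box (7.15%), and the Btc window held none of the 6 motifs. These matches describe the letters of the windows and say nothing of what binds there.

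Total counts ranged from 51824408 to 163297772 per tumor, and levels are given as CPM, counts brought to a common library size with scaling by the trimmed mean of M values (TMM). By marker genes tumor 36 stood apart from the others. Its summed CPM was above the range of the other 5 tumors for simple or luminal epithelium (4759 against 621 to 1188), smooth muscle or myoepithelial cells (2325 against 266 to 532), suprabasal keratinocytes (968 against 299 to 737), neutrophils (473 against 20.9 to 160), adipocytes (123 against 2.32 to 34.3), Schwann cells (19.1 against 2.06 to 6.97), B cells (7.50 against 0.248 to 2.21) and, narrowly, macrophages (860 against 422 to 839). It was below them for basal keratinocytes (5777 against 10067 to 14519), where 4 of 6 genes (Krt5, Krt14, Krt15 and Trp63) were lowest in tumor 36 and Itga6 and Itgb4 were not. It lay within their range for fibroblasts (12718, others 5194 to 15001), endothelial cells (263, others 87.1 to 334), T cells (77.9, others 44.0 to 111), skeletal muscle (81.9, others 17.6 to 104) and melanocytes (11.1, others 4.10 to 25.9). Among the lists whose sums were above the others, not every gene was highest in tumor 36. The suprabasal gene Dsg1a was lowest there (167 CPM, others 284 to 480). Krt18 and Krt7 of simple or luminal epithelium and Cd68 and C1qa of macrophages were highest in other tumors. Some sums also moved with the groups compared below. The fibroblast sum was 5194 to 6742 CPM in Osx-Cre;NT3 and 11545 to 15001 CPM in FSP1-Cre;NT3 tumors, and the endothelial sum 87.1 to 210 and 223 to 334 CPM. The adipocyte and neutrophil sums were higher in both perineal tumors (34.3 and 123 CPM, and 160 and 473 CPM) than in the trunk tumors (up to 12.5 and 63.9 CPM). The same order held for endothelial cells (334 and 263 CPM, trunk up to 223 CPM) and Schwann cells (6.97 and 19.1 CPM, trunk up to 6.25 CPM). It also held for B cells (2.21 and 7.50 CPM, trunk up to 1.87 CPM), and for none of the remaining lists. Rn45s, a ribosomal RNA precursor, took 5.28%, 6.40% and 7.65% of the counts in tumors 13, 18 and 25, with 10.2% and 13.3% in tumors 29 and 36 and a share between those of tumors 18 and 25 in tumor 27, so that tumor 36 had the highest. Of all the markers only Dct, a melanocyte gene, was at 0 in a tumor, number 13. The labels call the samples tumors of the trunk or perineum and name no cell type, and markers of keratinocytes and of fibroblasts were both abundant in all 6. In bulk RNA, fewer cells of a type and less RNA per cell cannot be told apart. The part of these cell types and of Rn45s in the results was not tested, and the fold changes that turn on tumor 36 are given with and without it. Map3k14, which encodes NIK, measured from 38.7 to 118 CPM, and its counts do not separate the transgene from the gene itself.

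Egfr and Erbb2 were the abundant receptors in every tumor, Erbb3 was lower and more variable, and Erbb4 was almost undetected. Egfr, the receptor for most of the ligands, measured 91.8, 66.3 and 135 CPM in Osx-Cre;NT3 tumors 13, 18 and 25, with 137, 112 and 76.1 CPM in FSP1-Cre;NT3 tumors 27, 29 and 36. Its highest value was 2.06 times its lowest, and the lines and the sites overlapped. Erbb2, the receptor without a ligand of its own, measured 69.6, 49.5 and 90.5 CPM in tumors 13, 18 and 25, with 84.8, 93.7 and 79.3 CPM in tumors 27, 29 and 36. Tumor 18 was lowest in both genes. Erbb2 had the smallest relative spread of the 10 members, a coefficient of variation of 20.9%, against 29.0% for Egfr.

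Erbb3, which signals through its partner receptors, measured 13.0, 15.7 and 42.5 CPM in tumors 13, 18 and 25, with 28.5, 23.3 and 51.6 CPM in tumors 27, 29 and 36. Tumors 36 and 25, of different lines and sites, were the highest, and tumors 13 and 18 the lowest. Erbb4, the neuregulin receptor with its own kinase activity, had 0 counts in 5 tumors and 2 counts in tumor 36, or 0.0313 CPM. Counts of 0 allow levels of up to 0.0195 to 0.0621 CPM, taken as 3 counts per library. These limits would be higher if both reads of a pair were counted. Erbb4 was thus at or below what this depth can detect and was not tested.

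Per length, the receptors were compared with the deposited RPKM values (reads divided by gene length and library total). Egfr averaged 13.0 ± 4.36 RPKM and Erbb2 12.6 ± 3.04 (SD, n = 6), a difference smaller than either spread. Erbb3 averaged 5.87 ± 3.16 RPKM and was below Erbb2 in 6 of 6 tumors and below Egfr in 5 of 6, the exception being tumor 36. Of the summed receptor RPKM, Egfr held 41.3 ± 6.30%, Erbb2 40.5 ± 3.48% and Erbb3 18.1 ± 7.54% (SD, n = 6). In tumor 36 the Erbb3 share was 31.7%, against 10.3% to 21.3% in the other tumors, and the Egfr share was 29.2%, against 41.4% to 46.9%. The ratio of Egfr to Erbb2 RPKM was 1.02, 1.04, 1.16 and 1.25 in tumors 13, 18, 25 and 27, whereas tumors 29 and 36 were at 0.924 and 0.745.

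**Figure D1:**
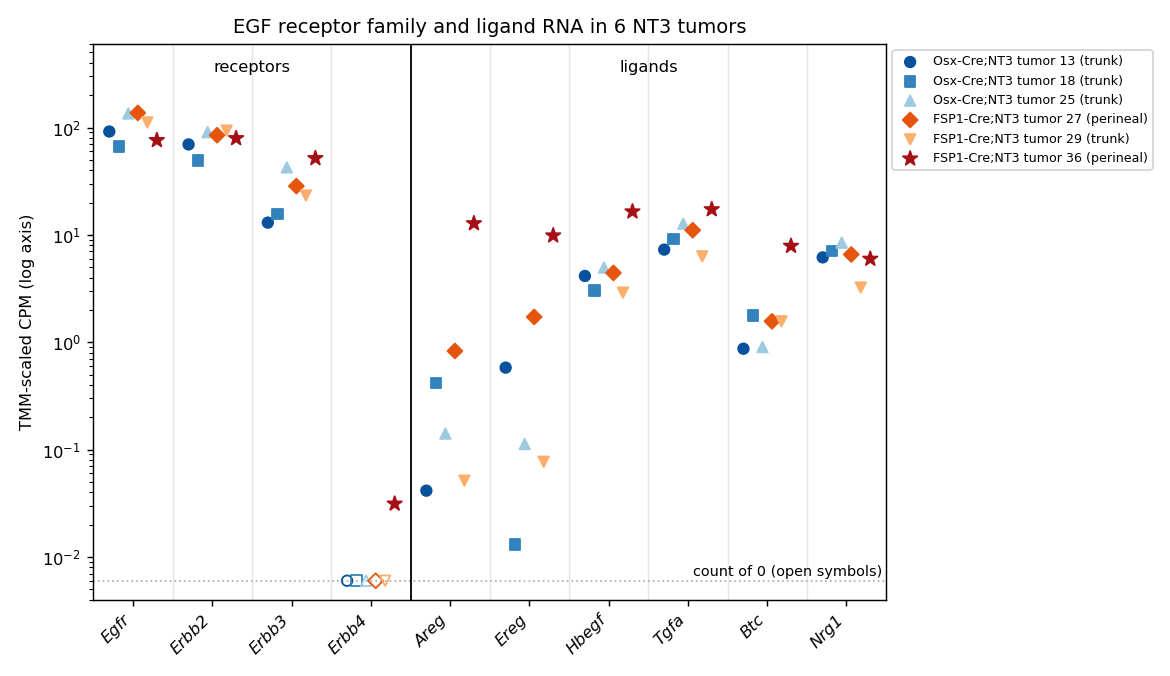
TMM-scaled CPM (log axis) of the 4 receptors and 6 ligands, 1 symbol per tumor, with open symbols for a count of 0. Egfr and Erbb2 lie between 49.5 and 137 CPM in all 6 tumors, and tumor 36 (star) is highest in Areg, Ereg, Hbegf, Tgfa and Btc.

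The ligands were low in most tumors, and 5 of the 6 were highest in tumor 36. Areg measured 0.0414, 0.416 and 0.141 CPM in Osx-Cre;NT3 tumors 13, 18 and 25, with 0.829, 0.0513 and 12.8 CPM in FSP1-Cre;NT3 tumors 27, 29 and 36. Both perineal tumors were above all 4 trunk tumors, and tumor 36 was 15.4 times the next, tumor 27. The deposited counts were 2, 64, 10, 54, 4 and 818 in tumors 13, 18, 25, 27, 29 and 36, so that the low values rested on few reads.

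Ereg, whose gene lies next to Areg, measured 0.580, 0.0130 and 0.113 CPM in tumors 13, 18 and 25, with 1.72, 0.0770 and 9.85 CPM in tumors 27, 29 and 36. The order was again tumor 36, then tumor 27, then the trunk tumors, with tumor 36 at 5.73 times tumor 27. Ereg counts ran from 2 in tumor 18 to 630 in tumor 36. Btc, the third ligand gene of this stretch, measured 0.870, 1.78 and 0.901 CPM in tumors 13, 18 and 25, with 1.57, 1.56 and 7.88 CPM in tumors 27, 29 and 36. Here tumor 36 was 4.43 times the next tumor, number 18, and perineal tumor 27 lay among the trunk tumors.

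Hbegf, which lies on another chromosome, measured 4.14, 3.03 and 4.96 CPM in tumors 13, 18 and 25, with 4.42, 2.90 and 16.5 CPM in tumors 27, 29 and 36. Without tumor 36 its values lay between 2.90 and 4.96 CPM, and tumor 36 was 3.32 times the next. Tgfa measured 7.29, 9.15 and 12.7 CPM in tumors 13, 18 and 25, with 11.1, 6.31 and 17.3 CPM in tumors 27, 29 and 36. The step from tumor 25 to tumor 36 was only 1.36-fold, and lines and sites overlapped.

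Nrg1 departed from the other ligands. It measured 6.17, 7.09 and 8.45 CPM in tumors 13, 18 and 25, with 6.57, 3.23 and 5.97 CPM in tumors 27, 29 and 36. Tumor 29 was the lowest, and tumor 36 lay below the median of the others at 0.909 times that median. The deposited Nrg1 entry covers 9.24% of the RefSeq span of 1084.2 kb, so reads on exons outside it were not part of this value.

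Among the 9 members tested, tumor 36 had the highest value in 6 (Erbb3, Areg, Ereg, Hbegf, Tgfa and Btc), where 24.8% of all 16415 genes tested between the lines had their highest value in this tumor. It was over 4-fold above every other tumor in 3 of the 9 (Areg, Ereg and Btc), against 3.68% of all genes. Which tumor was highest was read from the same values that are described here, so these counts are a description. Relative to the median of the other 5 tumors, tumor 36 was 90.8-fold in Areg, 87.4-fold in Ereg, 5.04-fold in Btc, 3.98-fold in Hbegf, 2.22-fold in Erbb3 and 1.89-fold in Tgfa. Egfr (0.682-fold) and Erbb2 (0.935-fold) were below that median.

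Per length, Nrg1 led the 6 member ligands in most tumors. Ligands outside this set, such as Nrg2 (13.9 to 54.4 CPM), were not compared per length. By mean RPKM the order was Nrg1 (2.38 ± 0.683), Hbegf (2.03 ± 1.78), Tgfa (2.03 ± 0.806), Areg (1.61 ± 3.44), Btc (0.680 ± 0.758) and Ereg (0.406 ± 0.755; SD, n = 6). Neighbors in this order differed by less than the larger of their SDs. By median RPKM the order became Nrg1 (2.42), Tgfa (1.97), Hbegf (1.48), Btc (0.451), Areg (0.179) and Ereg (0.0637), the mean of Areg resting on tumor 36. Without that tumor Areg averaged 0.206 ± 0.246 RPKM and Ereg 0.102 ± 0.154, with Hbegf at 1.32 ± 0.351, Btc at 0.373 ± 0.122 and Nrg1 at 2.40 ± 0.762 (SD, n = 5). Nrg1 had the highest RPKM of the 6 ligands in 5 tumors, and in tumor 36 Areg (8.61 RPKM), Hbegf (5.60) and Tgfa (3.29) were above it (2.29).

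Summed over the member ligands, RPKM was 5.17, 5.89 and 7.78 in tumors 13, 18 and 25. The sum was 8.17, 3.87 and 23.9 in tumors 27, 29 and 36. Areg held 36.0% of it in tumor 36, against 0.502% to 7.47% in the others, and Nrg1 held 9.58%, against 31.7% to 43.4%. The Hbegf share was similar in all tumors, between 16.4% and 25.4%. The summed receptor RPKM did not follow this order, with 23.6, 18.3 and 40.4 in tumors 13, 18 and 25, against 40.0, 33.4 and 32.7 in tumors 27, 29 and 36. Receptor over ligand RPKM was therefore lowest in tumor 36, at 1.37, against 3.10 to 8.62 in the other 5. Nrg2 and the other ligands outside the members were left out of the sums, the shares and this ratio.

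**Figure D2:**
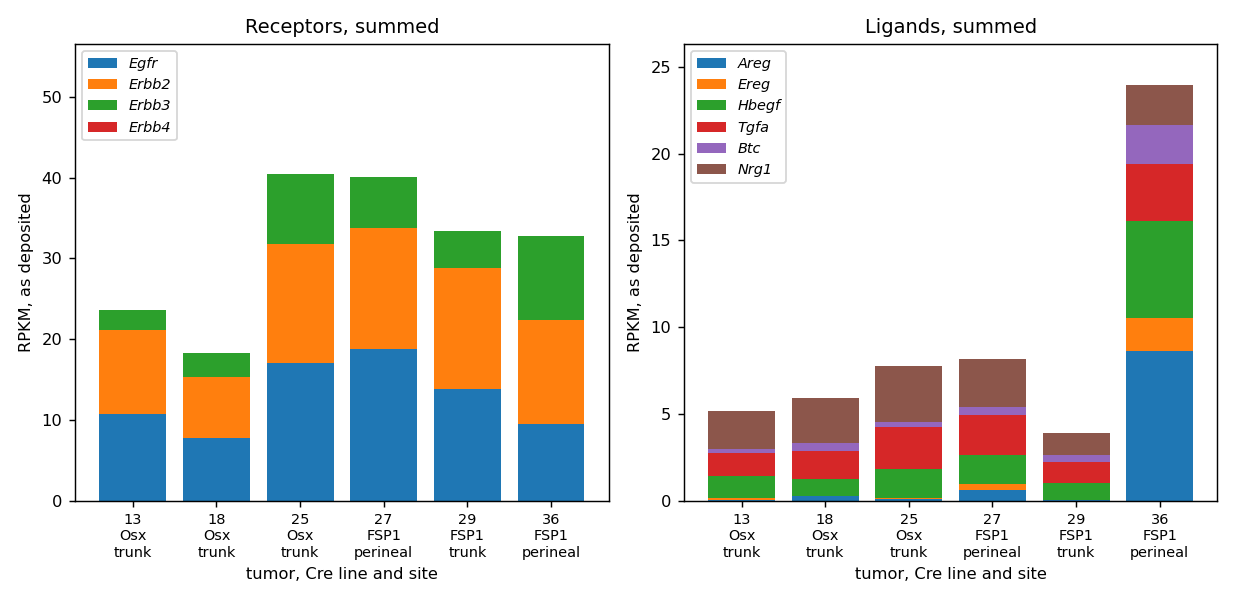
Deposited RPKM of the member receptors (left) and member ligands (right), stacked by gene, for each tumor with its Cre line and site. Summed ligand RPKM is 23.9 in tumor 36 and 3.87 to 8.17 in the others, whereas summed receptor RPKM in tumor 36 (32.7) does not exceed that range, 18.3 to 40.4.

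The first comparison asked whether the members differed between the Cre lines, FSP1-Cre;NT3 over Osx-Cre;NT3 (n = 3 each). No member passed the threshold of an adjusted p of 0.05 with edgeR's quasi-likelihood test, and neither did any of the 16415 genes tested (0%). At an unadjusted p under 0.05, 10.8% of all genes and 1 of the 9 members, Areg, were counted. DESeq2 called 2.56% of all genes and 0 of the 9 members.

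Areg averaged 4.56 ± 7.14 CPM in FSP1-Cre;NT3 and 0.199 ± 0.194 CPM in Osx-Cre;NT3 tumors (SD, n = 3 each), a log2 fold change of 4.44 ± 1.83 (SE, edgeR adjusted p = 0.458). Without tumor 36 the Areg value was 1.06 ± 1.28, and in the 4 trunk tumors alone, where FSP1-Cre;NT3 has the single tumor 29, it was -1.98 ± 1.75. Ereg (4.11 ± 1.84, edgeR adjusted p = 0.463) fell to 2.00 ± 1.63 without tumor 36 and was -1.54 ± 2.18 in trunk tumors. Hbegf (0.97 ± 0.67) and Tgfa (0.25 ± 0.42) likewise had values of opposite sign without tumor 36, -0.14 ± 0.39 and -0.16 ± 0.38. The direction between the lines of these 4 ligands thus depended on the perineal tumors, and for Hbegf and Tgfa on tumor 36 alone.

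Btc had a log2 fold change between the lines of 1.63 ± 0.77 (edgeR adjusted p = 0.466), and of 0.40 ± 0.50 without tumor 36. Nrg1 was the only member tested with a negative value, -0.46 ± 0.36 (edgeR adjusted p = 0.601), and overlapping lines. For the receptors, the line differences were 0.15 ± 0.33 for Egfr, 0.30 ± 0.25 for Erbb2 and 0.54 ± 0.53 for Erbb3 (SE), with edgeR adjusted p between 0.616 and 0.865. Without tumor 36 they were 0.34 ± 0.33, 0.35 ± 0.29 and 0.12 ± 0.54. No member tested had lines that did not overlap, whereas 17% of all genes did.

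**Figure D3:**
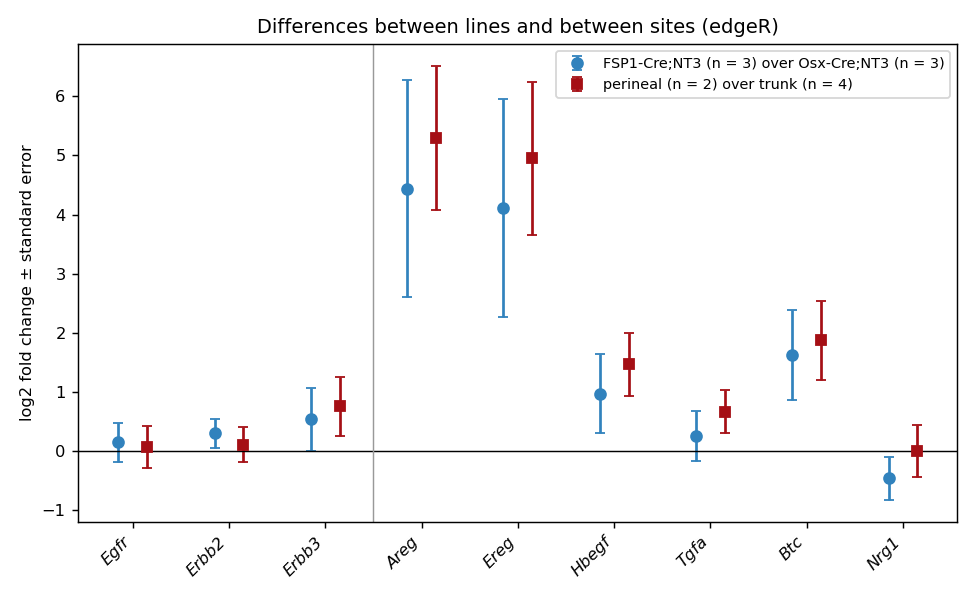
Fitted log2 fold change (points) with its standard error (bars) from edgeR for the 9 members tested, between lines (circles) and between sites (squares). Areg and Ereg have the largest values in both comparisons, 4.11 to 5.30, with standard errors of 1.22 to 1.84.

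The second comparison set the perineal tumors (27 and 36) over the trunk tumors (13, 18, 25 and 29). Again no member was called by edgeR, nor any of 16971 genes (0%). At an unadjusted p under 0.05, 10.5% of all genes and 4 of 9 members (Areg, Ereg, Hbegf and Btc) were counted. DESeq2 called 3.34% of all genes as higher in perineal tumors, among them 2 of the 9 members, Areg and Ereg. Perineal tumors did not overlap with trunk tumors, and were higher, in 10.3% of all genes and in the same 2 members.

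Areg averaged 6.81 CPM in the perineal tumors and 0.162 ± 0.175 CPM in the trunk tumors (SD, n = 4), with a log2 fold change of 5.30 ± 1.22 (edgeR adjusted p = 0.263, DESeq2 adjusted p = 0.000657). Without tumor 36 the value was 2.29 ± 1.21 (edgeR adjusted p = 1.00), and DESeq2 then called no member. Without tumor 27, with 1 perineal tumor left, it was 6.14 ± 1.05 and passed the edgeR threshold (adjusted p = 0.0367). Ereg averaged 5.78 CPM in perineal and 0.196 ± 0.259 CPM in trunk tumors, a log2 fold change of 4.95 ± 1.29 (edgeR adjusted p = 0.288, DESeq2 adjusted p = 0.00426) and of 3.19 ± 1.42 without tumor 36. Both genes were thus higher in tumor 27 than in every trunk tumor as well, by a smaller step than in tumor 36.

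Hbegf (1.47 ± 0.53, edgeR adjusted p = 0.401) and Btc (1.87 ± 0.66, edgeR adjusted p = 0.390) dropped to 0.23 ± 0.50 and 0.29 ± 0.67 between the sites without tumor 36. Tgfa was at 0.67 ± 0.37 (edgeR adjusted p = 0.553) and at 0.32 ± 0.47 without it. Erbb3 was at 0.75 ± 0.50, and at 0.27 ± 0.64 without tumor 36. Egfr (0.07 ± 0.36), Erbb2 (0.11 ± 0.29) and Nrg1 (0.00 ± 0.43) were near 0, with standard errors that leave changes of either sign possible, and without tumor 36 Egfr was at 0.43 ± 0.41. Within FSP1-Cre;NT3 tumors, tumors 27 and 36 were set over tumor 29 alone. The values were then 6.98 ± 2.72 for Areg, 6.18 ± 1.87 for Ereg and 1.83 ± 1.11 for Hbegf. Btc was at 1.58 ± 1.33, Tgfa at 1.15 ± 0.53 and Nrg1 at 0.95 ± 0.56. Of the receptors, Erbb3 was at 0.77 ± 0.52, Egfr at -0.07 ± 0.49 and Erbb2 at -0.20 ± 0.26. Site and line share the perineal tumors and are not independent comparisons.

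Because Ereg, Areg and Btc lie side by side, all 14 genes within 500 kb of Areg were listed, a window chosen after the member values were seen. Tumor 36 was highest in 6 of them: Cxcl5, Pf4, Epgn, Ereg, Areg and Btc. Of all genes tested between the lines, 24.8% were highest in tumor 36, and Ereg, Areg and Btc had led to the choice of window. Epgn, which encodes the EGFR ligand epigen, measured 11.0 CPM in tumor 36 and 1.27 to 4.93 CPM in the others. Cxcl5, a chemokine for neutrophils, measured 19.4 CPM in tumor 36, 2.70 CPM in tumor 27 and 0.166 to 0.844 CPM in the trunk tumors. The neighbors between and beside the ligand genes did not all share this order. Mthfd2l and Gm19619 were at 0.734 and 0.457 times the median of the other tumors, Parm1 was at 1.13 times, and Cxcl1, Cxcl2 and Cxcl3 were highest in tumor 27.

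**Figure D4:**
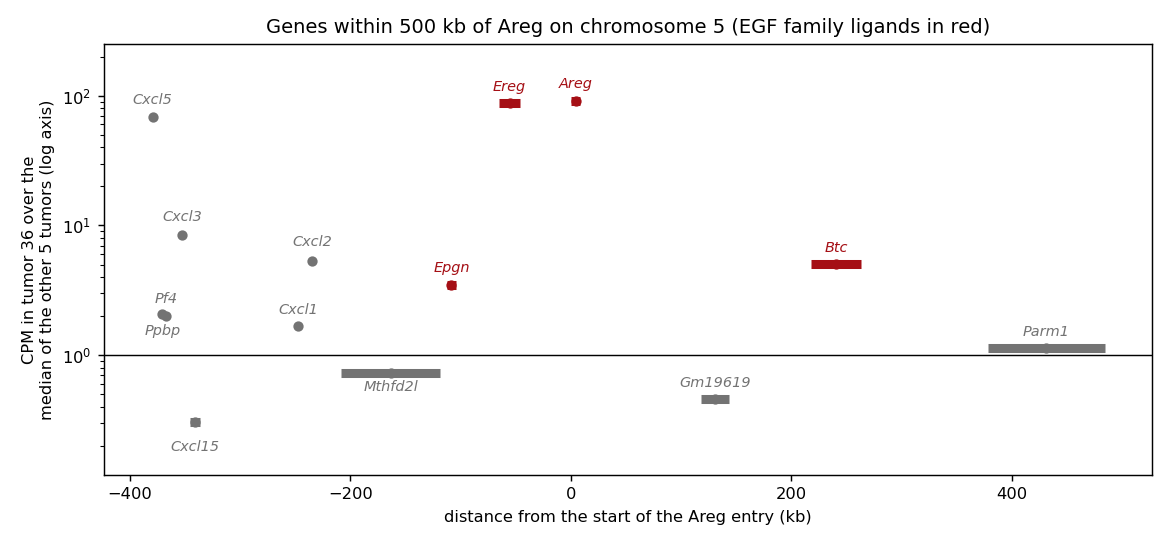
For each gene within 500 kb of Areg, CPM in tumor 36 over the median of the other 5 tumors (log axis), against distance from the start of the Areg entry in kb. Bars span the gene entries, EGF family ligands (Epgn, Ereg, Areg and Btc) are in red, and Areg (90.8), Ereg (87.4) and Cxcl5 (68.7) have the highest values.

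The pathway around the receptors was read from 5 lists with 44 genes other than the members. Of these, 42 were tested between lines and 43 between sites, and edgeR called none of them in either direction. At an unadjusted p under 0.05, edgeR counted 5 between lines and 9 between sites, and DESeq2 called 0 and 6, the 6 being higher in perineal tumors. Over all genes the shares were 10.8% and 10.5% at an unadjusted p, 2.56% between lines with DESeq2 and 3.34% higher in perineal tumors. Of the 44 genes, 13 were higher in both perineal tumors than in every trunk tumor, against 10.3% of all genes tested, and 1 of the 13, Nrg3, was too low to be tested. The median log2 fold change of the lists together was 0.33 between lines and 0.36 between sites, where all genes had medians of 0.01 and -0.02.

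Of the 5 other ligands, Nrg2, a neuregulin, was the most abundant at 29.9, 15.3 and 54.4 CPM in tumors 13, 18 and 25, with 38.1, 15.8 and 13.9 CPM in tumors 27, 29 and 36. Tumor 36 was the lowest in Nrg2, unlike in Epgn. Egf, the founding member of the family, measured 0.373, 0.507 and 0.394 CPM in the Osx-Cre;NT3 and 1.01, 1.28 and 1.41 CPM in the FSP1-Cre;NT3 tumors. Its lines did not overlap, as was so for 17% of all genes tested. The log2 fold change of Egf was 1.53 ± 0.41 (edgeR adjusted p = 0.458), and 1.43 ± 0.47 without tumor 36. Nrg4 was between 0.497 and 1.50 CPM (1.00 ± 0.46 between lines, edgeR adjusted p = 0.463), and Nrg3 was at 0 in 4 tumors.

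Among the 6 sheddases and their regulators, the proteases that release the ligands differed in how much they varied. Adam17, the main sheddase of Areg, Ereg, Hbegf and Tgfa, lay between 81.9 and 110 CPM in all 6 tumors, and Adam10, which sheds Btc, between 89.0 and 147 CPM. Adam9 was the highest of the list, at 340.6 CPM in tumor 25 and 158 to 210 CPM in the others. Adam12 ranged from 48.7 to 135 CPM, and the iRhom genes Rhbdf1 and Rhbdf2, whose products regulate Adam17, from 38.1 to 93.8 and from 19.1 to 61.8 CPM. These 3 are named outside the rule to show the spread of the list. Line differences in this list had a median log2 fold change of 0.02, with 3 of 6 genes on each side of 0. Site differences had a median of -0.05, and without tumor 36 the medians were -0.12 between lines and 0.08 between sites. With all 6 tumors, no gene reached an unadjusted p of 0.05 with edgeR in either comparison.

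Among 9 inhibitors and degradation factors, Errfi1 (also called Mig6), an inhibitor that binds the EGFR kinase, measured 18.3, 30.0 and 27.9 CPM in tumors 13, 18 and 25, with 45.8, 25.3 and 78.4 CPM in tumors 27, 29 and 36. Both perineal tumors were above every trunk tumor (site log2 fold change 1.28 ± 0.30, edgeR adjusted p = 0.263, DESeq2 adjusted p = 0.0188). Without tumor 36 the Errfi1 value was 0.85 ± 0.34. Lrig1, a transmembrane inhibitor of the receptors, was level at 129 to 195 CPM, and so was Rnf41 (Nrdp1), a ubiquitin ligase for ERBB3, at 37.4 to 50.5 CPM.

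Among 9 adaptors, Grb2 and Shc1, which connect the receptors to Ras, lay between 87.0 and 106 CPM and between 74.3 and 101 CPM. Grb7, an adaptor whose gene neighbors Erbb2, lay between 32.3 CPM in tumor 36 and 80.7 CPM in tumor 18. Eps8, a substrate of the receptor kinase, measured 3.73, 8.87 and 6.03 CPM in tumors 13, 18 and 25, with 11.2, 5.16 and 97.0 CPM in tumors 27, 29 and 36. Tumor 36 was far above all others in Eps8, with a site log2 fold change of 3.18 ± 0.72 (edgeR adjusted p = 0.263, DESeq2 adjusted p = 0.00214) and of 0.92 ± 0.50 without it.

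The list of 15 genes that respond to ERK, the kinase downstream of Ras, held feedback inhibitors (Dusp, Spry and Spred genes). It also held transcription factors (Etv4, Etv5, Egr1 and Fosl1) and the genes Phlda1 and Ier3. Between sites, 14 of 15 had a positive log2 fold change, with a median of 0.73, and between lines 13 of 14, with a median of 0.45. Without tumor 36, 14 of 15 were positive between sites (median 0.48, all genes -0.03) and 10 of 14 between lines (median 0.16, all genes -0.02). Of the 15, 7 were higher in both perineal tumors than in every trunk tumor (Dusp5, Dusp6, Spry1, Spry4, Egr1, Fosl1 and Ier3), 6 had an unadjusted edgeR p under 0.05 between sites, and none passed the adjusted threshold. Over all genes these shares were 10.3% and 10.5%. DESeq2 called 4, all higher in perineal tumors as were 3.34% of all genes, and these were Dusp5, Spry1, Egr1 and Fosl1. Dusp5, Spry1 and Fosl1 are named here after their values were seen.

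Egr1, an immediate early transcription factor, measured 9.69, 6.37 and 5.94 CPM in tumors 13, 18 and 25, with 21.4, 8.13 and 34.6 CPM in tumors 27, 29 and 36. The perineal tumors were above all trunk tumors, at a site log2 fold change of 1.89 ± 0.31 (edgeR adjusted p = 0.263, DESeq2 adjusted p = 0.000102). Without tumor 36 the Egr1 value was 1.51 ± 0.38, so that tumor 27 had most of the difference as well. Dusp6, an ERK phosphatase, lay at 65.2 CPM in tumor 36, 42.9 CPM in tumor 27 and 27.2 to 39.5 CPM in trunk tumors (site log2 fold change 0.71 ± 0.26, and 0.38 ± 0.32 without tumor 36). Dusp4, a related phosphatase, was instead highest in trunk tumor 25 at 111 CPM, against 23.0 to 51.9 CPM in the others. Spred1 was also highest in tumor 25 (38.2 CPM), close to tumor 36 (37.0 CPM). RNA levels of these genes do not measure receptor or ERK activity, which was not tested.

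**Figure D5:**
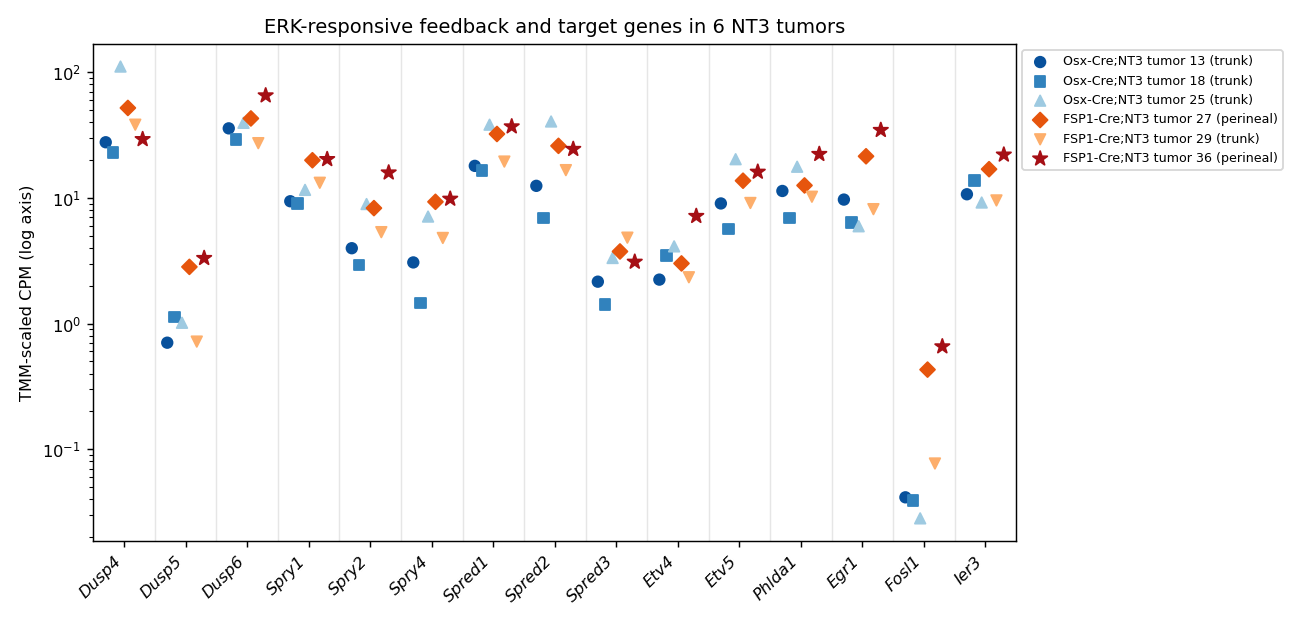
TMM-scaled CPM (log axis) of the 15 ERK-responsive genes, 1 symbol per tumor. The perineal tumors 27 (diamond) and 36 (star) are above all 4 trunk tumors in 7 genes, including Egr1 (21.4 and 34.6 CPM), while Dusp4 is highest in trunk tumor 25.

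Genes whose log2 CPM followed the members most closely over the 6 tumors were named as a description. For Egfr they were Nfrkb (Pearson r = 0.997), Nol6 (0.996) and Gfod1 (0.995), out of 14161 genes of which 822 had an r over 0.9. For Erbb3 they were Wdr76 (r = 0.986), Kif14 (0.986) and Cd177 (0.984), with 364 genes over 0.9. For Nrg1, the member ligand with the highest mean RPKM, they were Mtmr2 (r = 0.964), Lyn (0.962) and Isoc1 (0.958), and 26 genes were over 0.9. Within a tumor all genes share a library, and with 6 tumors many genes reach such values.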

How the data were processed

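RNA-Seq of 6 tumors was read from 1 table of the series. The authors deposited raw counts per gene and RPKM values on mm10, with replicates kept apart, and the table also gives a length for each entry, in bases. The study's methods name HISAT2 and featureCounts for these counts, whereas the submitters' processing notes name TopHat2 2.0.6 and HTSeq, so the tools are not settled. Annotation and strandedness are not given in the sources used here, so reads of Egfr, Erbb2, Ereg and Tgfa cannot be separated from overlapping antisense entries. Every deposited count is even (100%). If both reads of a pair were counted, low counts hold fewer fragments than they show.

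Counts entered edgeR 4.0.16 under R 4.3.3 (filterByExpr, TMM, glmQLFit, glmQLFTest, Benjamini-Hochberg over all genes tested, threshold 0.05), between lines (3 against 3) and between sites (2 against 4), without covariates. Standard errors were derived from the log2 fold change and its F statistic. RPKM was used only to compare genes of different length. Total counts were 51824408 to 163297772, and tumor 36 had the largest share of Rn45s (13.3%). The number of tumors, more than depth, limits precision, and the limit of 3 counts covers counting error only. Each tumor came from a different mouse. Scripts were tested on simulated data. Alternatives were DESeq2 1.42.0, other scalings and filters, halved counts, covariates, subsets by site or line and leaving out each tumor, and DESeq2 without each tumor was added after seeing the data.

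The members, gene lists and markers were chosen with earlier results of these data known. All members are named. Of each pathway list, the rule named genes past the threshold, or otherwise the 3 with the highest mean CPM and the 1 with the largest line difference. All 119 list genes were found, and 43 repeated symbols were kept as separate entries. Motifs were searched in RefSeq promoters (GRCm38.p6) with Python 3.11.15. Samples of benign tissue were not analysed here.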

Additional observations from a re-analysis of the deposited data

Results flagged for a closer look

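Spread among the members was examined by Dixon's ratio, the gap from the most extreme tumor to its nearest neighbor over the whole range, computed on log2(CPM + 0.1) over 6 tumors (critical value 0.625). Hbegf in tumor 36 had a ratio of 0.694, with 16.5 CPM against 2.90 to 4.96 CPM in the other tumors. Btc in tumor 36 had a ratio of 0.686, with 7.88 CPM against 0.870 to 1.78 CPM. Nrg1 in tumor 29 had a ratio of 0.637 at the low end, with 3.23 CPM against 5.97 to 8.45 CPM. Of 18 patterns examined, 3 were beyond the critical value, where chance would give about 1 in 20, or 0.9 of 18, for independent patterns. They were not independent, since all came from the same 6 tumors. Hbegf and Btc, both flagged for tumor 36, were correlated (Pearson r = 0.794 on the same scale). These counts are therefore a description, and no excess over chance can be read from them. Areg and Ereg did not exceed it. In both genes tumor 27 stood between tumor 36 and the trunk tumors, and the trunk tumors were themselves widely spread on this scale.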

How the results depend on the processing

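The call of 0 members held with edgeR between lines in all alternatives run, and between sites in all but leaving out tumor 27. DESeq2 called more genes, 420 between lines and 605 between sites, of which 2 were members between sites. Without each tumor in turn, edgeR called 0 genes between lines and 0 to 567 between sites (2 without tumor 25, 567 without tumor 27), with 0 to 1 members between sites, Areg (6.14). The single perineal tumor was then assumed to vary like the rest. Added after seeing the data, DESeq2 without tumor 13, 18, 25, 27, 29 or 36 called 236, 499, 3650, 460, 731 or 196 genes between lines, with 0 to 2 members. Between sites it called 318, 649, 669, 1492, 731 or 14 genes, with 0 to 4 members. Both lowest counts came without tumor 36, where no member was called, and the 4 between sites without tumor 27 were Areg, Ereg, Hbegf and Btc.

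Between lines, the log2 fold changes changed sign with site as a covariate for Erbb3 (-0.028), Areg (-1.99), Ereg (-1.51), Hbegf (-0.48) and Tgfa (-0.62), and in trunk tumors alone (-0.031, -1.98, -1.54, -0.48 and -0.63). Leaving out tumors gave -0.073 to 0.41 for Egfr, -0.14 to 1.35 for Hbegf and -0.16 to 0.52 for Tgfa. Between sites, Egfr was at -0.072 with line as a covariate and -0.075 within FSP1-Cre;NT3, and Erbb2 at -0.20 in both. Nrg1 was at -0.0092 with DESeq2 and -0.0066 without a filter. Leaving out tumors gave -0.44 to 0.43 for Egfr, -0.048 to 0.22 for Erbb2 and -0.23 to 0.14 for Nrg1. The cause of these shifts was not tested. Scaling by library size alone moved the median of all genes between lines from 0.01 to 0.13 and turned no member's direction. No paired analysis was possible because the groups share no replicate numbers.

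Only 3 tumors a line and 2 perineal tumors were available, a group of 2 in which 1 tumor carried most values. Counts under 10, as in Areg of tumors 13 and 29, limit the ligand folds, and Erbb4 lay below detection. RNA of bulk tumors says nothing of which cells held it.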

Other observations

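Outside the family, the chemokine genes of the chromosome 5 window split by tumor. Cxcl3 measured 2.27 CPM in tumor 27 and 1.72 CPM in tumor 36, against 0.0828 to 0.637 CPM in the trunk tumors. Cxcl2 was at 3.99 CPM in tumor 27 and 1.50 CPM in tumor 36, against 0.0828 to 0.351 CPM, and Cxcl1 at 15.4 and 10.8 CPM, against 3.72 to 7.04 CPM. Together with Cxcl5, 4 of the 7 chemokine genes in the window were higher in both perineal tumors than in every trunk tumor, an order that 10.3% of all genes showed. The other 3 were not. Ppbp was highest in trunk tumor 18 (0.883 CPM), Pf4 was at 24.6 CPM in tumor 18 and 24.3 CPM in tumor 27, and Cxcl15 was lowest in tumor 36 (0.0313 CPM). The summed neutrophil markers were 160 CPM in tumor 27 and 473 CPM in tumor 36, against 20.9 to 63.9 CPM in the trunk tumors, and their part in these levels was not tested. The genes were chosen after their values were seen, and no test was run on them.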
